A study of Mus musculus with 6 samples.

Results

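Multi-exon assembled loci without a reference gene are stretches of the mouse genome where reads of these libraries were joined into spliced transcript models and no annotated gene of the reference was attached. They were taken as the loci in the deposited StringTie files in which no transcript carried a reference gene name, every transcript was an assembled one (identifiers starting with MSTRG) and at least 1 transcript had 2 or more exons. The rule found 411 loci among 58292 genes and loci, and 2401 further assembled loci without a reference gene had single-exon transcripts alone. The rule used no expression value. The cells were GL261, an established mouse glioma line, and RNA was taken 4 h after sodium propionate or sodium chloride was added, each at 1 uM as the labels give it. Gut bacteria release propionate, a fatty acid of short chain, when they ferment fibre, and sodium chloride was the salt it was compared with. There were 3 libraries of each salt, called chloride 1, 2, 3 and propionate 1, 4, 5 after their titles; nothing in the labels ties them to separate cultures, so p-values here measure only how far these samples scatter, perhaps for technical reasons.

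A spliced transcript is made when introns are cut out of a primary RNA and exons are joined, and an assembler infers that step from reads that align with a gap. Loci of this kind in well-studied genomes can be long noncoding RNAs, antisense RNAs, further pieces of known genes or copies of repeated sequence. Long noncoding RNAs are usually less abundant than messenger RNAs and many stay in the nucleus. Total RNA libraries, as used here, hold RNAs with and without a poly(A) tail, unspliced RNA included.

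The libraries held 9.15 to 11.3 Gb of bases counted by StringTie, and 71192 to 82370 transcript models had coverage. Chloride 3 (71452) and propionate 1 (71192) had fewer covered models than the other 4 libraries (81178 or more). Levels below are TPM (a transcript's length-corrected share of the library, scaled so that a library sums to 1000000) after each library was divided by a scale factor between 0.966 and 1.09. Of 8 glioma and neural progenitor markers, 7 had a mean of at least 1 TPM, and their summed level was 3421 to 3836 in chloride and 3684 to 4060 in propionate. Vim, an intermediate filament of glia and mesenchymal cells, made up most of that sum. Macrophage and microglia markers summed to 4.61 to 6.26 TPM in chloride and 4.76 to 6.15 in propionate, with Ptprc and Cx3cr1 under 0.1 TPM. Fibroblast and pericyte markers summed to 87.0 to 99.7 and 76.5 to 100.3 TPM, with Dcn under 0.1.

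In 14 of the 411 loci the 5′ end of an assembled transcript lay within 50 bases of the start of a RefSeq gene on the same strand. The 6 of these with a mean of at least 5 TPM, whose RefSeq symbols the deposited files do not hold, are printed, a choice made after their values were seen, because they show where transcript models built from reads alone begin beside an independently annotated start. Each window runs from 250 bases before to 50 bases after the RefSeq start, 5′ to 3′ on the gene's strand (RefSeq, build GRCm38.p6, the same assembly as mm10). Capitals mark the bases from the 5′ end of the locus's most abundant spliced model onward.
Gm35636 (chr10:86161700-86161999, plus strand): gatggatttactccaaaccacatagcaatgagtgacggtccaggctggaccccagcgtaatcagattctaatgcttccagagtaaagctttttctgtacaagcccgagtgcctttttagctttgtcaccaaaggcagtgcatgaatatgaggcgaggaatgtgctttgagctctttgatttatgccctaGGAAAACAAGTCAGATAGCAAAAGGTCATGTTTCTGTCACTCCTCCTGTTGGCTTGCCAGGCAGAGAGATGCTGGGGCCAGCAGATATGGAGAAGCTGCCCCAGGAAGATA
Gm19378 (chr15:89767365-89767664, plus strand): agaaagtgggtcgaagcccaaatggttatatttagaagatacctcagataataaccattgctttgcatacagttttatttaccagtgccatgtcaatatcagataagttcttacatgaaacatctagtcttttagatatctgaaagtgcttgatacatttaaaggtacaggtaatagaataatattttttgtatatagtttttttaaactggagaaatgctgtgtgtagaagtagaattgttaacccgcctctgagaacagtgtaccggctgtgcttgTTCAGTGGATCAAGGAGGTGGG
Gm38396 (chr17:17179055-17179354, plus strand): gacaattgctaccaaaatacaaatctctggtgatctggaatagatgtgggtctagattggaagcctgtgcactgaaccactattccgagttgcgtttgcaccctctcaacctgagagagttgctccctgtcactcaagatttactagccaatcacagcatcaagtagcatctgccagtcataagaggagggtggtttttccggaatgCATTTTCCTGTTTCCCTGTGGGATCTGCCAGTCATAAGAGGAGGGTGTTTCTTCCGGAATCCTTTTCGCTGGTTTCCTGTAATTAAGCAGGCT
Gm40003 (chr2:170673789-170674088, minus strand): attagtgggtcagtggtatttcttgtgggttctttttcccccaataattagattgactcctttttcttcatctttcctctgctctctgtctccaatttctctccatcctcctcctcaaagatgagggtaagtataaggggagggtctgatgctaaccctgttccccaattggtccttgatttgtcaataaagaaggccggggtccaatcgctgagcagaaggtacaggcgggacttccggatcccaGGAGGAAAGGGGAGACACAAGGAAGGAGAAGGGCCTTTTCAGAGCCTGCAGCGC
Zfp33b (chr5:104571422-104571721, plus strand): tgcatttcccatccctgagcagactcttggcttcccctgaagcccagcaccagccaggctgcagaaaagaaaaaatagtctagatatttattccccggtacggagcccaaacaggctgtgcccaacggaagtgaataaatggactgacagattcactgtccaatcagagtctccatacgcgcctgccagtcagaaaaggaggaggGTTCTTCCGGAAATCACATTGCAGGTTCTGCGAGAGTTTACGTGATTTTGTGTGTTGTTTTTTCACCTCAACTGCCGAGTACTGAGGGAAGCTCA
Gm38561 (chrX:163958491-163958790, plus strand): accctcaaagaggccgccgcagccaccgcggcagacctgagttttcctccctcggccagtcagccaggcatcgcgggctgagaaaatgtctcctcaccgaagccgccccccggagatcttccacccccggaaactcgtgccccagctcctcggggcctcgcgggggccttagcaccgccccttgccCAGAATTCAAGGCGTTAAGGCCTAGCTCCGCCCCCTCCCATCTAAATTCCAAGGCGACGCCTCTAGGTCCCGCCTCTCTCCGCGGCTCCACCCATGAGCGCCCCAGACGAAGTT

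The most abundant model began upstream of the RefSeq start at 5 of the 6, at -61 for Gm35636, -43 for Gm38396, -4 for Gm40003, -45 for Zfp33b and -64 for Gm38561, and 28 bases inside the gene for Gm19378. Its first exon took 22 to 114 bases of the window. In 2 loci a less abundant model began nearer to the RefSeq start, 16 bases inside Gm35636 (5.02 TPM on average, against 5.92 for the most abundant model) and 28 bases inside Gm38561 (1.15 against 4.49 TPM). The letters CCAAT, which name a promoter element bound by the factor NF-Y, were searched on both strands with overlapping matches counted apart. They occurred 5 times in the Gm40003 window, at -210, -159, -86, -83 and -47 from the RefSeq start. The Gm38396 window held 2 and the Zfp33b window 1, at -91. The letters GGGCGG, the core of a GC box bound by Sp factors, occurred 3 times in the Gm38561 window, which also held 25 CG dinucleotides against 3 to 9 in the other 5. None of the 6 held TATAAA. Over the 29 loci with a RefSeq start within 500 bases, CCAAT was present in 41.4% of windows, GGGCGG in 27.6% and TATAAA in 17.2%, beside 37.4%, 35.7% and 13.6% of all 32851 RefSeq promoter windows of that length. A match describes the letters and shows no binding.

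These 6 loci varied little between libraries. MSTRG.13294, at the start of the noncoding gene Gm40003, had 37.6, 37.5 and 32.2 TPM in the chloride libraries 1, 2 and 3, and 36.2, 39.6 and 37.6 TPM in the propionate libraries 1, 4 and 5. MSTRG.7953, at Gm19378, was at 20.9, 23.2 and 20.03 TPM in chloride and 23.9, 23.3 and 21.4 TPM in propionate. The salts overlapped at both loci. MSTRG.16997 begins at Zfp33b, named as a zinc-finger protein gene, and read 10.02, 11.01 and 10.3 TPM against 7.99, 10.3 and 10.4 TPM. MSTRG.9062 at Gm38396 and MSTRG.24263 at Gm38561 had group means of 10.1 ± 1.26 and 11.1 ± 1.06 TPM, and of 5.51 ± 0.860 and 5.78 ± 0.421 TPM (SD, n = 3), for chloride and propionate. All 14 loci with such a start within 50 bases passed the filter on low values, and their median coefficient of variation (SD over mean) across the 6 libraries was 10.7%, against 22.5% for the 335 loci tested. Their median level was also higher, 4.10 against 2.91 TPM, and variation differed with level. It was 26.0% at tested loci of 1 to 5 TPM and 12.6% at those of 5 TPM or more. The part of level in the difference was not tested.

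The 411 loci were mostly short in exon number and wide in size. There were 319 with at most 2 exons in a transcript, 54 with 3, 24 with 4, 12 with 5, 1 with 6 and 1 with 7. The span on the genome ran from 247 to 303747 bp with a median of 4154 bp, and the longest transcript from 202 to 25192 nt with a median of 1056 nt. A single transcript model made up 309 loci, and 28 loci also held an unspliced model. The plus strand held 203 and the minus strand 208. Chromosome 2 held the most (38), followed by chromosomes 10 (32) and 8 (31), while the Y chromosome held 13 and unplaced scaffolds 4.

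The longest gap between exons of the most abundant spliced model had a median of 1378 bp. It was under 50 bp in 34 loci, shorter than mammalian introns usually are, and reached 195392 bp. Even coverage of exons was measured as the least covered exon in percent of the most covered one, averaged over libraries. Its median was 55.2%, with 228 loci at 50% or above and 38 under 10%. Loci under 10% had a median level of 7.37 TPM, and those at 50% or above 2.63 TPM.

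**Figure D1:**
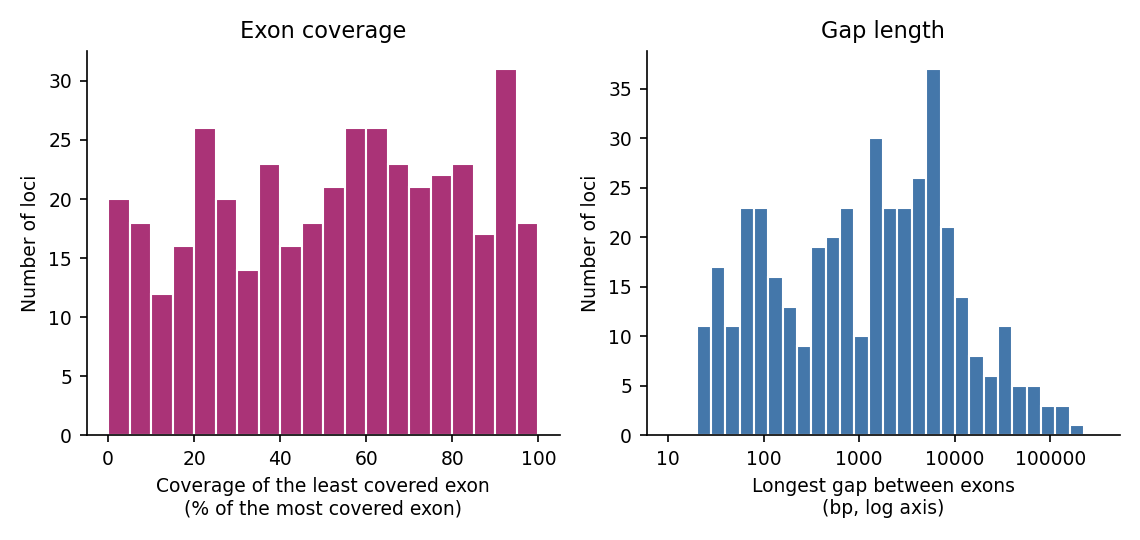
Structure of the 411 loci, as counts of loci: left, coverage of the least covered exon in percent of the most covered exon (median 55.2%); right, the longest gap between exons of the most abundant spliced model in bp on a log axis (median 1378 bp).

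None of the loci shared a same-strand exon base with a reference gene of the files. By position, 127 overlapped the span of a reference gene on the other strand without exon overlap, and 84 overlapped an exon of a gene on the other strand. A further 30 overlapped the span of a gene on their own strand outside its exons, 58 lay within 5 kb of a gene and 112 lay farther away. Overlap of a span includes loci that extend past a gene or contain it. A same-strand RefSeq gene whose symbol the files do not hold overlapped 64 loci, 54 of them noncoding and 10 protein-coding. In 20 loci an exon overlapped an exon of an assembled locus on the opposite strand. The library kit is a stranded one, but the sources used here do not give the strand setting of the counting, so reads of such pairs may not be told apart.

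Summed over the loci, the levels reached 14160, 18203 and 19000 TPM with chloride, against 22101, 13487 and 13121 TPM with propionate. The group means of 17121 ± 2595 and 16236 ± 5082 TPM (SD, n = 3) overlapped and were not separated by an exact permutation test (two-sided p = 0.8, smallest possible 0.1). The loci took 1.27% to 2.15% of the deposited TPM. Between 60.8% and 76.2% of the sum came from MSTRG.9611 alone. Without the 3 loci above 1000 TPM, the sums were 2448, 2535 and 2615 TPM in chloride and 2324, 2647 and 2438 TPM in propionate (exact permutation test, two-sided p = 0.6).

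MSTRG.9611 was the most abundant locus (chr17:39842996-39846352, plus strand). Its levels were 8832, 12912 and 13347 TPM in chloride and 16840, 8199 and 7996 TPM in propionate. Propionate 1 was the highest of all 6 libraries and propionate 4 and 5 the lowest, so the groups overlapped throughout. It ends 2 bases before RefSeq's Rn18s-rs5, a pseudogene copy of 18S ribosomal RNA sequence, and 1 base from the files' gene CT010467.1, and it shares an exon with Gm26917 of GENCODE M21. CT010467.1 read 5668, 3714 and 3801 TPM in chloride and 4102, 4837 and 6246 TPM in propionate, high in chloride 1 and propionate 5 where MSTRG.9611 was low. The gap between its exons was 73 bp, and the spliced model that carried the reads differed: MSTRG.9611.2 held all or most of the level in 5 libraries, while in propionate 5 it held 34.0 TPM and MSTRG.9611.1 held 7962 TPM. Ribosomal RNA is removed during this library preparation, and the part of that removal in the level was not tested. Reads from such repeated sequence can be placed at several copies, so this value is uncertain.

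MSTRG.22353 and MSTRG.22352 overlap each other on opposite strands of chromosome 8 (123428747 to 123434518, minus, and 123425777 to 123432318, plus). Both also overlap the spans of the reference genes Def8 and Galnt2l. MSTRG.22353 was at 1615, 1556 and 1694 TPM in chloride and 1699, 1458 and 1517 TPM in propionate. MSTRG.22352 was at 1266, 1200 and 1344 TPM in chloride and 1238, 1184 and 1170 TPM in propionate. Chloride 3 was the highest at the second and next to propionate 1 at the first, and the salts overlapped at both. Def8 itself was at 21.2 ± 1.59 and 20.7 ± 0.898 TPM (SD, n = 3), far below both loci. Exons of the pair overlap on opposite strands, so their reads may not be told apart and the levels are uncertain.

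The next loci by level lay between 56.8 and 231.4 TPM. MSTRG.1295 (chr1:170941966-170947646, plus) overlaps RefSeq's Gm39701 and read 197.0, 195.6 and 197.5 TPM in chloride and 231.4, 189.0 and 219.9 TPM in propionate. MSTRG.5122 (chr12:92885026-92892441, minus) has 3 exons and overlaps RefSeq's Gm40892. It had the lowest coefficient of variation of the 335 tested loci, 2.82%, at 103.9, 104.2 and 99.3 TPM in chloride and 98.2, 102.2 and 105.5 TPM in propionate. Its log2 difference, propionate minus chloride, was -0.01 with a 95% interval of -0.14 to 0.12. MSTRG.21044 (chr8:29515624-29519386, plus) lies 228643 bp from the nearest reference gene, Nudc-ps1, and read 89.8, 86.6 and 62.5 TPM against 56.8, 89.2 and 84.4 TPM. Chloride 3 and propionate 1 were the low libraries there. Its 2 exons were covered unevenly, the lesser at 2.46% of the greater.

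**Figure D2:**
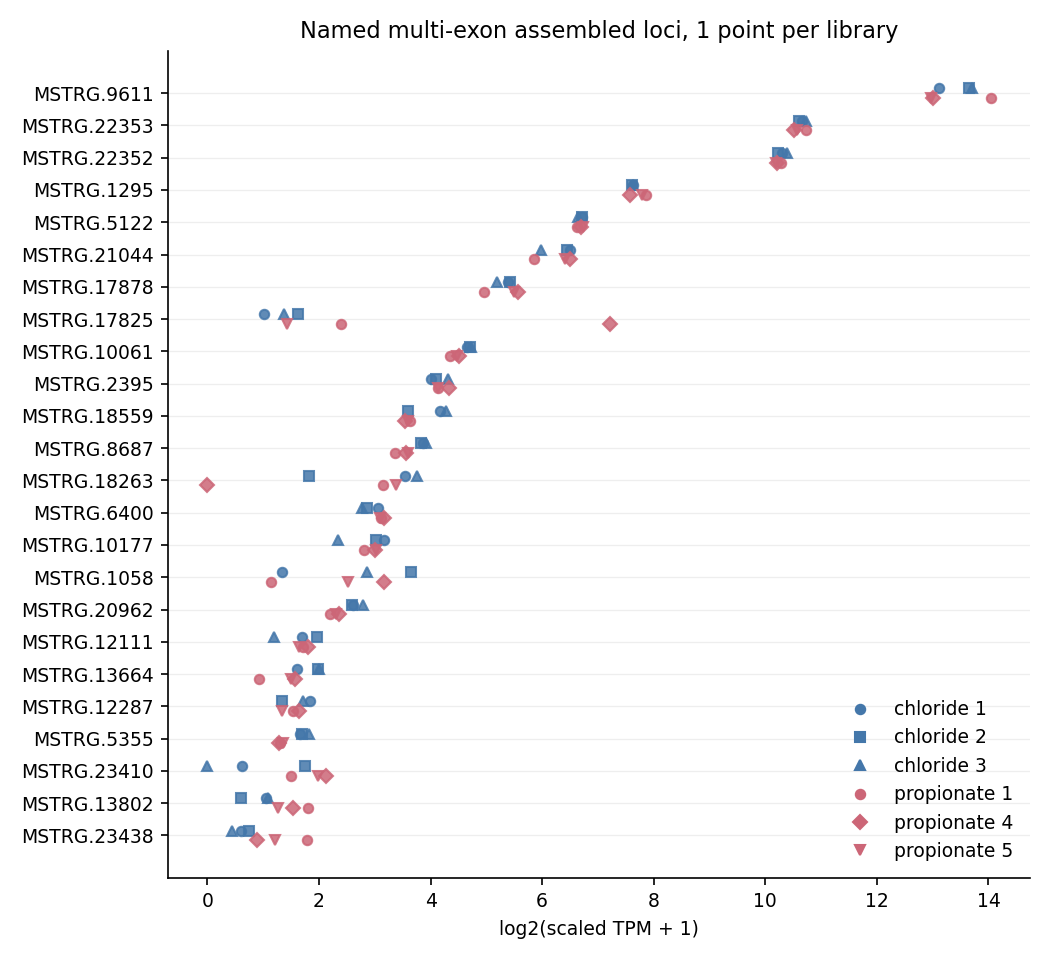
Levels of the 24 named loci as log2(scaled TPM + 1), 1 point per library, blue for chloride and red for propionate, ordered by mean. Most rows are tight; MSTRG.17825 is spread by propionate 4 (148.0 TPM) and MSTRG.18263 is listed at 0 in propionate 4.

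Levels fell off quickly below these. Of the 411 loci, 10 had a mean of 50 TPM or more, 85 of 5 to 50 TPM, 240 of 1 to 5 TPM and 76 under 1 TPM. The 335 at 1 TPM or above were tested among 15489 genes and loci, and 22 of the 335 were listed at 0 in at least 1 library. A listed 0 may mean that no reads were assigned to the model, not that the RNA was absent. The number of loci listed at 0 among all 411 was 32, 23 and 29 in chloride and 50, 31 and 34 in propionate. Propionate 1 had the most zeros (50) and 71192 covered models, while chloride 3 had 29 zeros and 71452 covered models. The relation between zeros and covered models was not tested.

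The loci with the most exons lay opposite genes or far from them. MSTRG.2395 (chr10:86161889-86190412, plus), with 7 exons in 1 of its 4 models, runs against Syn3, the gene of a synaptic vesicle protein. It covers nearly the same stretch as RefSeq's noncoding gene Gm35636 (86161950 to 86190326), whose start window is printed above. MSTRG.2395 read 15.02, 16.1 and 18.8 TPM in chloride and 16.5, 19.1 and 16.5 TPM in propionate. Syn3 read 4.24, 6.72 and 34.2 TPM in chloride and 3.48, 1.99 and 1.73 TPM in propionate. Chloride 3 thus stood apart in the gene and not in the summed level of the locus opposite it. It did stand apart in models of that locus. MSTRG.2395.3 held 0.382 TPM in chloride 3 and 4.59 to 7.56 TPM in the other libraries, and MSTRG.2395.4 held 5.28 TPM against 0 to 1.03 TPM. MSTRG.12287 (chr2:71738045-71751536, minus) has 6 exons and overlaps the span of Itga6, an integrin subunit, on the other strand. It shares exons with Gm17250 of GENCODE, and its exons overlap those of Gm13663, Gm13647 and Gm13662 on the other strand. It was low, at 2.59, 1.51 and 2.27 TPM against 1.88, 2.11 and 1.54 TPM, whereas Itga6 was at 235.3 ± 6.60 and 235.0 ± 11.1 TPM (SD, n = 3). MSTRG.17878 (chr6:12838868-12846993, plus) had 8 models, the largest with 5 exons, and read 40.7, 42.1 and 35.3 TPM against 30.0, 46.5 and 44.3 TPM.

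The longest span was that of MSTRG.18559, which covers 303747 bp of chromosome 6 across a cluster of Vmn1r genes and pseudogenes, which code for receptors of the pheromone-sensing vomeronasal organ. That length rests on a 211-nt model that held 8.17 and 8.89 TPM in chloride 1 and chloride 3 and 0 in the other 4 libraries. The compact model MSTRG.18559.1, which ends at 89995088, held 8.79, 11.1 and 9.60 TPM in chloride and 11.4, 10.7 and 11.1 TPM in propionate. The Vmn1r genes inside the span had group means of 0.161 TPM or less. MSTRG.20962 (chr8:19785352-19982612, plus) joins 2 exons across 195392 bp, both covered evenly (86.2%). MSTRG.13664 (chr3:46883646-47018524, minus) spreads 348 nt of exon over 134879 bp. The microRNA gene Mir6379 lies in a gap between its exons and overlaps none of them.

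Of the 3 loci farthest from any reference gene, MSTRG.21044, given above, was abundant and the other two were low. MSTRG.10177 on chromosome 18, with up to 4 exons, lies 329430 bp from the nearest gene and read 7.99, 7.08 and 4.09 TPM in chloride and 5.997, 7.06 and 7.10 TPM in propionate. MSTRG.12111 on chromosome 2 lies 321952 bp away and read 2.24, 2.91 and 1.29 TPM against 2.29, 2.47 and 2.13 TPM. Chloride 3 was the lowest library at both.

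At 3 loci of at least 5 TPM the libraries lay farthest apart. MSTRG.17825 (chr6:3200768-3201613, minus) was at 148.0 TPM in propionate 4 and at 1.02 to 4.24 TPM in the other 5, which is 6408 estimated reads in the highest library against 38 in the lowest. Its 2 exons are 34 bp apart and the lesser was covered at 6.02% of the greater. MSTRG.18263 (chr6:58816890-58825863, plus) read 10.6, 2.54 and 12.5 TPM in chloride and 7.88, 0 and 9.44 TPM in propionate, most of it in an unspliced 8974-nt model. MSTRG.1058 on chromosome 1 ranged from 1.21 TPM in propionate 1 to 11.5 TPM in chloride 2, and both salts held low and high libraries.

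No locus passed the comparison of the salts. With limma on log2(TPM + 1) and Benjamini-Hochberg adjustment over all 15489 genes and loci, 0 of 335 had an adjusted p under 0.05, the smallest being 0.913, and 1 feature of all tested (0.00646%), not an assembled locus of this kind, did. At an unadjusted p under 0.05, 30 loci were lower in propionate and 4 higher, where 2.98% of all features were lower and 2.16% higher. The 3 propionate values lay all below the 3 chloride values at 43 loci (12.8%) and all above at 4 (1.19%), beside 6.46% and 5.24% of all features tested. By sign alone, 227 were lower and 108 higher, so 67.8% were lower against 48.2% of all features. The median log2 difference was -0.11, against 0.01 over all features. Most of the loci were of low level, and among all 4855 features of 1 to 5 TPM the background was itself shifted, with 59.8% lower by sign, 9.72% not overlapping and lower, and 3.50% not overlapping and higher. With the deposited TPM left unscaled, 81.2% of the loci and 76.2% of all features were lower by sign, and the median of all features was -0.08.

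The filter on the mean of all 6 libraries let in 7 loci whose chloride mean was under 1 TPM and 19 whose propionate mean was, which passed through the group where they were higher. With both group means at 1 TPM or above, an alternative added after the data were seen, 309 loci were fitted among 14918 features. Of these, 28 were lower and 0 higher at an unadjusted limma p under 0.05, beside 2.78% and 2.12% of those features. None had an adjusted p under 0.05. With no overlap, 40 were lower and 2 higher, beside 6.10% and 5.24% of those features. The median was -0.09, and 208 loci, or 67.3%, were lower by sign, against 47.4% of those features. Leaving out 1 library moved the lower count at that unadjusted p to 13 without chloride 3, 17 without propionate 5 and 47 without chloride 1. The share of all features lower at that p moved as well, to 1.70%, 2.08% and 3.54% in the same order. In bulk RNA, fewer cells of a type and less RNA per cell cannot be told apart.

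**Figure D3:**
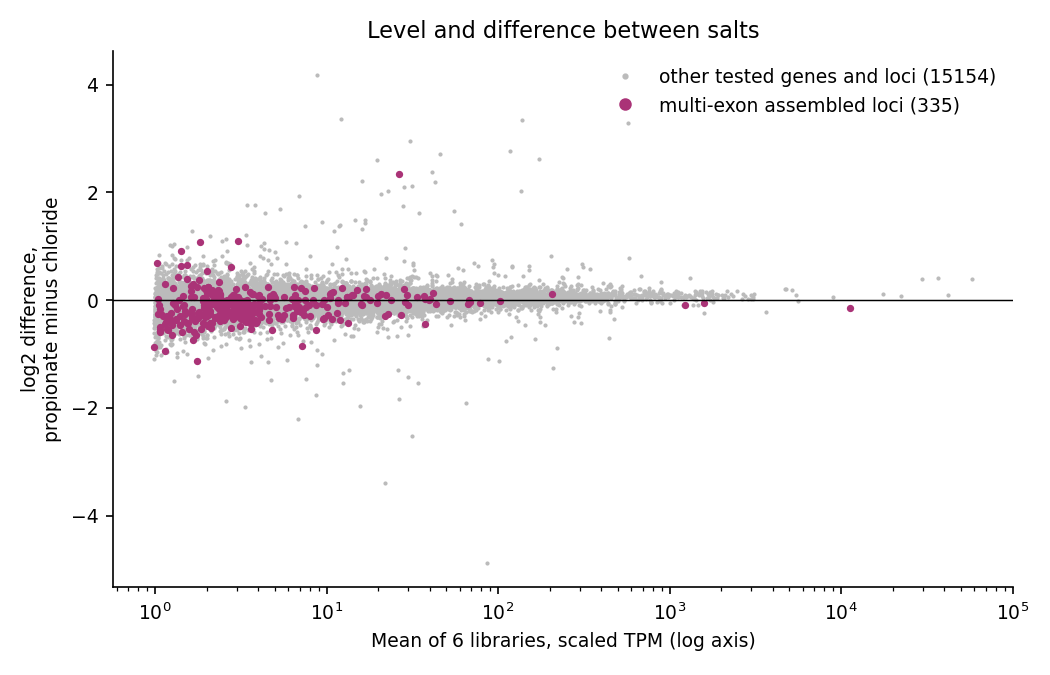
Mean of the 6 libraries in scaled TPM (log axis) against the log2 difference, propionate minus chloride, for the 335 tested loci (purple) and the other tested genes and loci (grey). The loci crowd at low levels, where their median lies below 0 and the spread is wide.

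The split by level was read against all features of the same level. The 240 loci of 1 to 5 TPM had a median difference of -0.15, against -0.05 over all features of that level. By sign 175 were lower and 65 higher (72.9% lower, against 59.8% of all features of that level). The 95 loci of 5 TPM or more had -0.05, against 0.02, with 52 lower and 43 higher (54.7% lower, against 42.9% of all features of that level). At an unadjusted p under 0.05, 8.75% of the first were lower, against 4.26% of all features of that level, and 9.47% of the second, against 2.39%. Annotated long noncoding RNA genes leaned the same way, with a median of -0.12 over 742 tested genes and 71.0% lower by sign, while 11043 protein-coding genes had 0.01 and 45.3%. The median coefficient of variation in the 1 to 5 TPM band was 26.0% for the loci, 26.7% for long noncoding RNA genes and 16.5% for protein-coding genes. The difference between these classes was not tested.

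The lean differed between libraries of 1 salt. Relative to protein-coding genes, the median log2 deviation of the 335 loci from their own 6-library mean was -0.03 in chloride 1, 0.06 in chloride 2 and 0.17 in chloride 3, and it was -0.12, -0.03 and -0.07 in the propionate libraries 1, 4 and 5. Chloride 1 and propionate 4 were nearly equal. Chloride 3 was the highest of the 6 libraries at 136 loci and propionate 1 the lowest at 126. Sense-intronic and experimentally unverified (TEC) gene models of GENCODE, 270 in all, stood at 0.26 in chloride 3 and -0.13 in propionate 1, and their part in the result was not tested. Without chloride 3 and propionate 1 together, the median difference of the loci was -0.03. By sign 202 were lower and 133 higher (60.3% lower, against 49.9% of all features).

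**Figure D4:**
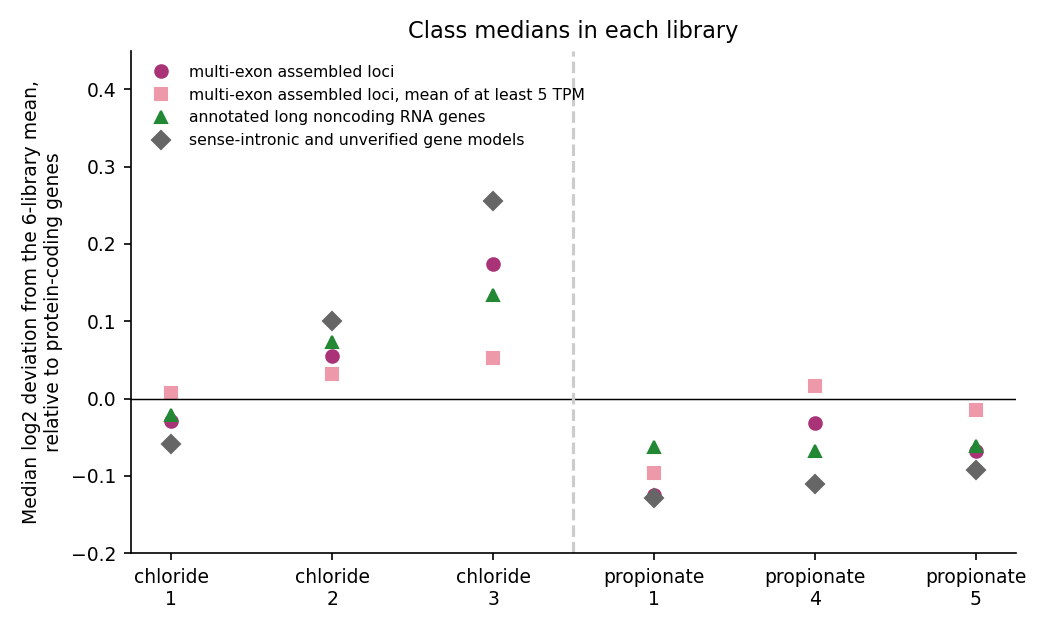
Median log2 deviation from the 6-library mean, relative to protein-coding genes, in each library for the 335 loci, those of at least 5 TPM, annotated long noncoding RNA genes and sense-intronic and unverified gene models. Chloride 3 is highest for every class drawn, and at 5 TPM or more the loci stay within 0.1 of 0.

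By position, most differences were negative in every group. Of 113 tested loci overlapping a gene span on the other strand, 87 were lower by sign and 26 higher, with a median of -0.20. Of these 113, 20 had groups that did not overlap, all lower (6.46% of all features were lower and 5.24% higher in this way). Loci overlapping an opposite exon had a median of -0.13, with 28 lower and 12 higher by sign. Those overlapping a gene span on their own strand had -0.19, with 20 lower and 6 higher by sign. Loci within 5 kb of a gene had -0.12, with 35 lower and 17 higher by sign, and 11 non-overlapping lower and 1 higher. The 104 tested loci farther than 5 kb had -0.04, with 57 lower and 47 higher, near an even split. These position groups differ in level as well, with medians of 2.63 TPM for the first and 3.77 TPM for the last, and the difference between them was not tested.

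**Figure D5:**
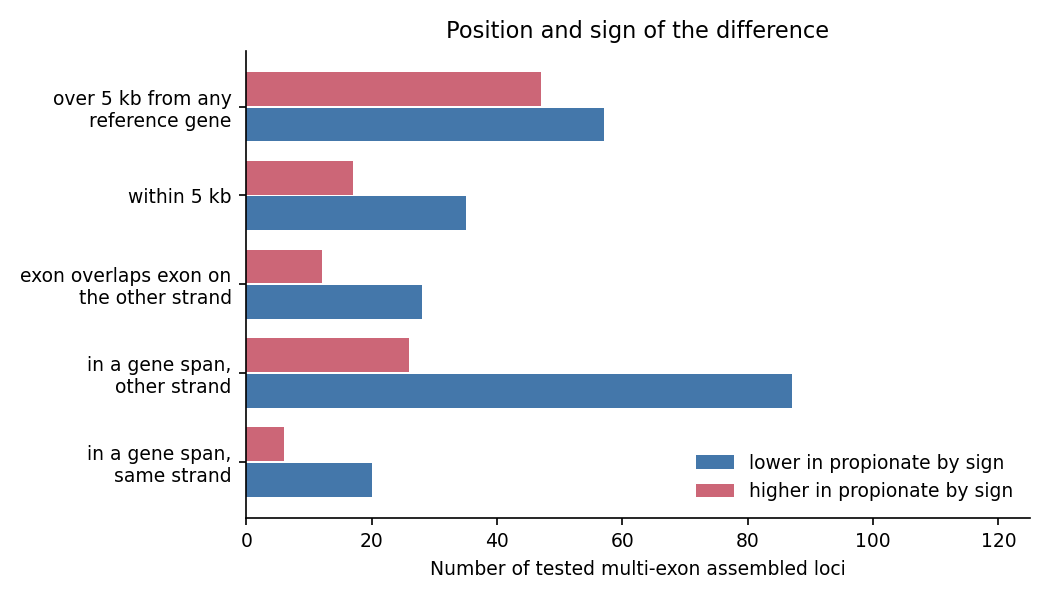
Numbers of tested loci lower (blue) and higher (red) in propionate by sign, by position relative to reference genes. In number the imbalance is largest for loci overlapping a gene span on the other strand (87 against 26). In share it is alike for those overlapping a gene span on their own strand (20 against 6). It is smallest for loci over 5 kb away (57 against 47).

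The 4 loci with the smallest p in each direction did not pass the adjusted threshold. MSTRG.8687 (chr16:55954590-55963980, plus) lies 2295 bp from Rpl24, a ribosomal protein gene, and overlaps RefSeq's Gm6958. It read 13.5, 13.1 and 14.1 TPM in chloride and 9.26, 10.8 and 11.02 TPM in propionate, with no overlap. The log2 difference of this locus, -0.36 with an SE of 0.0854, had a limma adjusted p of 0.913. Most of its level came from an unspliced 9391-nt model. The spliced model alone read 3.71, 3.70 and 2.28 TPM in chloride and 0, 3.32 and 3.15 TPM in propionate, where the salts overlapped, with a difference of -0.67 (limma adjusted p = 0.927). Rpl24 stood at 1310 ± 87.8 and 1373 ± 123 TPM (SD, n = 3).

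MSTRG.10061 on chromosome 18 read 24.2, 25.1 and 25.6 TPM in chloride and 19.4, 21.8 and 21.2 TPM in propionate, a log2 difference of -0.25 (SE 0.067). MSTRG.20962, the wide locus described above, read 5.12, 5.01 and 5.88 TPM against 3.59, 4.10 and 3.95 TPM. MSTRG.5355 (chr13:3604402-3607547, minus) lies inside Tasor2 on the same strand and read 2.16, 2.26 and 2.54 TPM against 1.47, 1.43 and 1.55 TPM. Its exons are 20 bp apart and the first had no coverage in 4 of the 6 libraries, so its second exon carries nearly all of the value. Tasor2 itself was at 30.6 ± 0.810 and 27.0 ± 1.28 TPM (SD, n = 3), lower by 0.18 on the log2 scale (limma adjusted p = 0.913). In all 4 loci every propionate library was below every chloride library, which the choice by smallest p makes likely, so it adds no support. Such separation was seen at 43 of the 335 loci (12.8%) and at 6.46% of all features.

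The loci with the smallest p among those higher in propionate included rare RNAs. MSTRG.13802 (chr3:58372827-58375116, plus) read 1.07, 0.523 and 1.12 TPM in chloride and 2.502, 1.91 and 1.40 TPM in propionate, from 9 to 42 estimated reads a library. MSTRG.6400 (chr13:117440194-117445291, minus) read 7.29, 6.23 and 5.81 TPM against 7.59, 7.96 and 7.56 TPM, a log2 difference of 0.23 (SE 0.0975, limma adjusted p = 0.913), with at least 501 estimated reads in each library. MSTRG.23438 and MSTRG.23410 lie on the unplaced scaffolds JH584304.1 and GL456210.1. The first read 0.512, 0.675 and 0.355 TPM against 2.44, 0.840 and 1.30 TPM, and the second 0.533, 2.35 and 0 TPM against 1.83, 3.35 and 2.97 TPM. Chloride and propionate did not overlap at the first and did at the second. MSTRG.13802, MSTRG.23438 and MSTRG.23410 had chloride means of 0.902, 0.514 and 0.961 TPM and passed the filter only through propionate, the group where they were higher, so their differences are a description.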

How the data were processed

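Total RNA of GL261 cells was sequenced in 3 chloride and 3 propionate libraries. Per the labels' protocols, the library kit was TruSeq Stranded Total RNA (Gold). HISAT2 and StringTie, bcl2fastq and fastp are listed without a role in the submitters' processing notes, with build mm10. Per the file headers, StringTie 2.1.1 estimated coverage, FPKM and TPM per transcript of 1 common model set (157296 models, 14805 of them assembled), with no counts; the deposited TPM sum to 1000000. Gigabases were derived from coverage and FPKM, and estimated reads assume a read length of 101 nt, taken from steps in coverage.

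TPM were summed per gene or locus, libraries were scaled by the median ratio to their geometric mean, and features averaging at least 1 TPM as deposited, with a transcript of 200 nt or longer, were fitted with limma 3.58.1 (lmFit, eBayes with a variance trend, two-sided) in R 4.3.3 on log2(TPM + 1), which understates changes of low values. P-values were Benjamini-Hochberg adjusted over all 15489 features. The fit was tested on simulated data. Sums were compared by an exact permutation test. Files were read with Python 3.11.15 and pandas 2.3.3. GENCODE M21 gave gene classes. Members, lists and rules were chosen with earlier results of these data known. Named were the 6 most abundant loci, 4 of smallest p per direction, 3 each by exon number, library spread (mean of at least 5 TPM), span and distance from genes. Alternatives covered scaling, pseudocount (0.1), filter, variance model, library weights and left-out libraries.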

Additional observations from a re-analysis of the deposited data

How the results depend on the processing

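No locus reached an adjusted p under 0.05 in limma under any alternative, where the smallest adjusted p was 0.132, without propionate 1. Depth limits the rarest loci: the tested loci had a median of 141 estimated reads in their lowest library, and the lowest quartile had 33 or fewer. The median stayed negative throughout, from -0.17 to -0.08 when a library was left out and -0.0313 without chloride 3 and propionate 1 together. Leaving out 1 library gave 13 to 47 loci lower and 2 to 5 higher at an unadjusted limma p under 0.05. Of all features, 1.70% to 3.54% were lower and 1.43% to 3.25% higher at that p in these settings. With no overlap, 53 to 99 loci were lower and 11 to 17 higher, beside 9.50% to 14.2% and 8.29% to 14.5% of all features. Without chloride 3 and propionate 1 together, 17 loci were lower and 7 higher at that p (3.03% and 2.83% of all features). With no overlap the counts were 78 and 34 (19.1% and 18.7% of all features). Deposited TPM gave 47 lower at that p (7.09% of all features) and 69 lower and 2 higher with no overlap (14.7% and 1.05%). With both group means at 1 TPM or above, chosen after seeing the data, 0 were higher at that p (2.12% of all features fitted). With no overlap, 2 were higher (5.24%). A filter at 5 TPM left 95 loci, with 9 lower and 0 higher at that p (2.32% and 2.46% of all features fitted). With no overlap, 9 were lower and 2 higher (4.975% and 6.04%). Voom gave 2 higher (1.76% of all features), and library weights 46 lower and 11 higher (7.54% and 6.62% of all features). No paired analysis was possible because the groups share only replicate number 1. The log2 ratio of summed TPM ran from -0.3635 to 0.0571 when 1 library was left out, above 0 without chloride 3, propionate 4 or propionate 5 in turn. For 10 of the 24 named loci, none past the threshold, the sign of the log2 difference turned under an alternative; the cause was not tested. MSTRG.1058 had -0.982 to 0.2213 with 1 library left out, 0.0686 with library weights and 0.3423 without chloride 3 and propionate 1. MSTRG.2395 had -0.004 to 0.146 with 1 library left out and -0.0296 with deposited TPM. MSTRG.5122 had -0.0315 to 0.0195 with 1 library left out and 0.023 with library weights. MSTRG.9611 had -0.5064 to 0.0323 with 1 library left out. MSTRG.10177 had -0.1479 to 0.2639 with 1 library left out and -0.0799 without chloride 3 and propionate 1. MSTRG.12111 had -0.1145 to 0.2735 with 1 library left out, -0.0502 with library weights and -0.1154 without chloride 3 and propionate 1. MSTRG.17878 had -0.1032 to 0.2032 with 1 library left out, -0.0856 with deposited TPM and -0.0187 with quantile normalization. MSTRG.18263 had -1.4688 to 0.2307 with 1 library left out and 0.1046 with library weights. MSTRG.18559 had 0.0284 with voom. MSTRG.21044 had -0.226 to 0.1407 with 1 library left out and 0.0076 with library weights.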

Other observations

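The 13 loci on the Y chromosome had a median level of 12.6 TPM over the 12 that passed the filter, above the median of 2.91 TPM over all 335. Loci with 5 exons had a median of 7.99 TPM over 12, and loci of 2 exons 2.85 TPM over 248. Loci with 2 or more transcript models had a median coefficient of variation of 16.4%, and those with 1 model 25.3%. These are descriptions with no test.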
